A study of Mus musculus with 18 samples.

Results

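The genes described here are 7 mouse genes of one trans-synaptic adhesion system: the secreted cerebellins Cbln1, Cbln2, Cbln3 and Cbln4, the presynaptic neurexins Nrxn2 and Nrxn3, and the delta-type glutamate receptor Grid1. They were taken by symbol from the authors' deposited table of 35734 genes, which compares fibroblasts given Brn2, Myt1l, Ikzf1 and Ikzf4 with fibroblasts given Brn2 and Myt1l. They were proposed with their values in that table known, so those values are a description here and are not tested. All 7 were in that table, and 6 had an adjusted p in it. All 7 also had a gene window (the gene and 2 kb on both sides) in the retinal chromatin data.

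The RNA was from fibroblasts, matrix-producing cells, taken from mouse embryos. They came from the C57BL/6 strain and the R26-M2rtTA line, which carries the doxycycline-controlled activator, and both groups received doxycycline-inducible lentiviral vectors and 48 h of doxycycline. The control group carried Brn2 and Myt1l, neuronal transcription factors, and the other group also carried Ikzf1 and Ikzf4, zinc-finger factors of the Ikaros family, with 3 RNA-seq libraries per group. Single-cell chromatin was read in 1 multiome ATAC library of mCherry control cells, labelled Muller glia from the retina of GLAST-CRE ERT2 ; RosaYFP mice of strain C57BL/6, and in 1 library labelled Ikzf1/4, whose labels give no tissue, line or strain beyond its title. Tamoxifen and 14 days are given for both multiome libraries, but run names in the fragment headers carry 48h. GLAST is the glial glutamate transporter, so this Cre line is one used to mark glia. No label says whether the RNA-seq replicates came from separate embryos or cultures, so errors in the RNA table may cover technical spread only.

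Cerebellins are secreted proteins of the C1q family that sit in the synaptic cleft. A cerebellin binds a neurexin on the presynaptic membrane and a delta-type glutamate receptor such as the product of Grid1 on the postsynaptic membrane, and so bridges the cleft. Binding depends on an alternatively spliced segment of the neurexin, and Cbln1 is best known from the synapse of cerebellar granule cells onto Purkinje cells.

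Among the ligands, Cbln2 had the largest fold change in fibroblasts. In the authors' deposited table the log2 fold change of Cbln2 (ENSMUSG00000024647) was 3.14 (SE 0.12), which is 8.83-fold, at a mean of 812 normalised counts over the 6 libraries. That was rank 4 of 16757 genes by fold change, and ranks 1 and 2 were the delivered factors Ikzf4 (8.54) and Ikzf1 (7.76) in the authors' deposited table. Cbln1 (ENSMUSG00000031654), the cerebellar form, had a log2 fold change of 0.62 (SE 0.21) at a mean of 12.5 in the authors' deposited table.

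The other cerebellins showed no comparable value. Cbln3 (ENSMUSG00000040380), which in the cerebellum is secreted together with Cbln1, was at -0.13 (SE 0.22) with a mean of 43.8 in the authors' deposited table. Cbln4 (ENSMUSG00000067578), which also binds the netrin receptor Dcc, had a mean of 0.17 normalised counts and no adjusted p in the authors' deposited table. At that level a change in Cbln4 was not detectable.

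The receptor genes among the members, Nrxn2, Nrxn3 and Grid1, had 95% bounds that held 0. In the authors' deposited table Nrxn2 (ENSMUSG00000033768) was at 0.36 (SE 0.19; 95% bounds -0.0022 to 0.72) with a mean of 99.2. Nrxn3 (ENSMUSG00000066392) was at -0.15 (SE 0.22; bounds -0.59 to 0.29) with a mean of 20.1 in the authors' deposited table. Grid1 (ENSMUSG00000041078), the postsynaptic partner, was at 0.22 (SE 0.20; bounds -0.18 to 0.61) with a mean of 14.4 in the authors' deposited table. The 95% bounds are taken from the standard errors and describe the precision of each value.

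Of the 6 members with an adjusted p, 2 were under 0.05 in the authors' deposited table, Cbln1 and Cbln2, both higher. Of all genes there, 15.3% of 16757 genes were higher and 15.4% lower at that threshold; the members were chosen from this contrast, so nothing is read from their count. The median log2 fold change of the 6 was 0.29 in the authors' deposited table and -0.0004 over all genes, and nothing is read from it for the same reason. The deposited means are not per length, so the levels of different genes are not compared. No transcript-to-gene map was used here, so member values in single libraries are not given. In the same 6 libraries edgeR's test per transcript called 7.11% of 43526 transcripts.

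**Figure D1:**
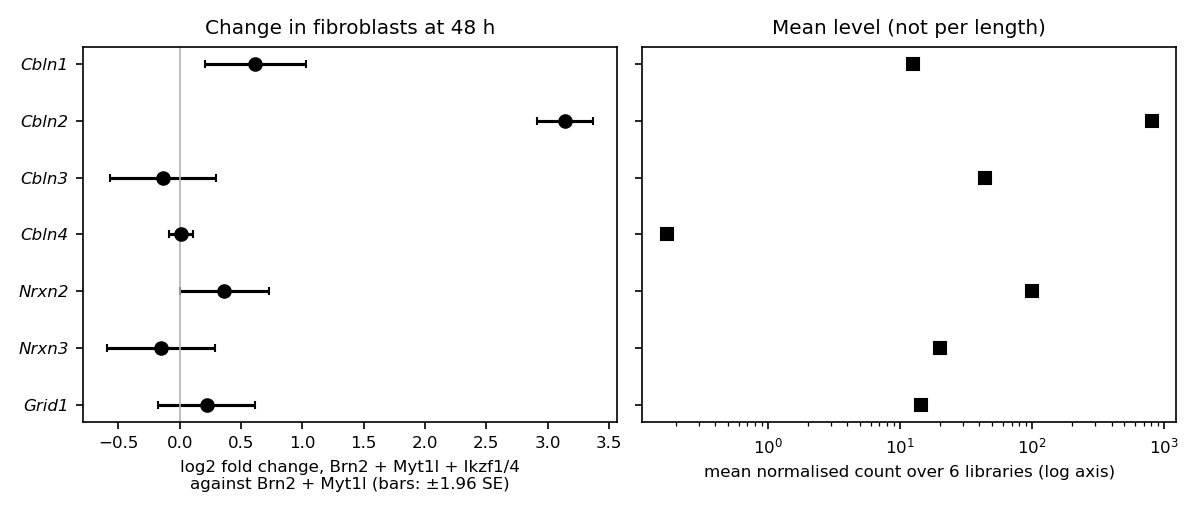
Left, log2 fold change of each gene in the authors' deposited table (points) with its 95% bounds (bars). Right, mean normalised count over the 6 libraries on a log axis, not divided by gene length. The marks are the 7 members. Cbln2 at 3.14 lies far to the right of the other genes.

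Other genes of the system were taken as 8 lists of 71 genes beside the members, of which 68 had an adjusted p. Of these 68, the authors' deposited table had 23 higher and 14 lower, with a median log2 fold change of -0.02. The table as a whole had 30.6% of genes with an adjusted p under the threshold and a median of -0.0004. The lists were chosen with earlier results of these data known, so nothing is read from their counts or median. Among the 7 other receptors of cerebellins and C1q-like proteins, 3 were higher and 1 lower. The higher ones in the authors' deposited table were Grik2, a kainate receptor subunit (2.06, SE 0.09), Adgrb3, an adhesion receptor for C1q-like proteins (1.46, SE 0.13), and Neo1, a relative of Dcc (0.25, SE 0.05). Dcc, a receptor of Cbln4, was lower at -0.61 (SE 0.11) in the authors' deposited table.

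The other ligands of neurexins moved in both directions. Of 20, 5 were higher and 4 lower, with a median of -0.04 in the authors' deposited table. Lrrtm2, a postsynaptic leucine-rich protein that competes for neurexins, rose by 1.37 (SE 0.14), and its relative Lrrtm4 fell by 0.83 (SE 0.16) in the authors' deposited table. Its relatives Lrrtm1 and Lrrtm3 were higher there, at 0.55 (SE 0.21) and 0.76 (SE 0.19). Nxph2, a neurexophilin, rose by 1.49 (SE 0.22), and Car11, a carbonic anhydrase-related protein that binds neurexins, fell by 1.41 (SE 0.18) in the authors' deposited table. Nxph2 and Car11 were the extremes of this list.

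Partners inside the cell and splice regulators also moved in both directions. Of 7 cytoplasmic partners of neurexins, 3 were higher and 3 lower in the authors' deposited table, from Apba2, a Munc18-binding adaptor (1.001, SE 0.20), to Lin7b, a PDZ scaffold (-0.92, SE 0.17). The 3 KH-domain regulators of the neurexin splice segment all passed the threshold. In the authors' deposited table Khdrbs3 rose by 0.59 (SE 0.06), while Khdrbs1 fell by 0.17 (SE 0.05) and Khdrbs2 fell by 0.30 (SE 0.10). Of 27 other trans-synaptic organisers, 10 were higher and 4 lower, and Slitrk4, a ligand of presynaptic phosphatases, had the largest rise among them at 2.99 (SE 0.18) in the authors' deposited table.

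The nearest genes on both sides of each member were read from the gene order of GRCm38.p6. Around Cbln2 (chr18:86711061-86718283) the neighbours were far away: Neto1 lay 204 kb off with a log2 fold change of 0.24 (SE 0.22), and Socs6 lay 2147 kb off at 0.45 (SE 0.09) in the authors' deposited table. Of these, only Socs6 passed the threshold. Cbln3 (chr14:55878920-55884256) lies 0.556 kb from Khnyn, and there the neighbours differed in sign. Khnyn was at 0.62 (SE 0.06) and Nynrin, on the other side, at -0.25 (SE 0.05) in the authors' deposited table, both past the threshold. Around Nrxn3 (chr12:88722701-90334935) the 3 neighbours with an adjusted p were all lower in the authors' deposited table, namely Adck1 (-0.30, SE 0.11), Dio2 (-0.74, SE 0.22) and Cep128 (-0.56, SE 0.17), while Nrxn3 itself was at -0.15.

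Of 10 fibroblast markers, Col1a1, Col1a2, Col3a1, Dcn and Prrx1 were lower in the authors' deposited table, Dcn by -1.77 (SE 0.08). Of 19 markers of other cells, Epcam was higher at 0.64 (SE 0.22) in the authors' deposited table and the others did not pass or had no adjusted p. The macrophage markers Csf1r, Ptprc and Cd68 had means of 2580, 1168 and 1146 in the authors' deposited table, the neuronal Map2 had 4799 and Syn1 756, while Rbfox3 was at 0.19, Sox1 at 0.33 and the muscle factors Myod1 and Myog at 0.16. In bulk RNA, fewer cells of a type and less RNA per cell cannot be told apart, and the part of such cells in the member values was not tested.

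In the retina, chromatin was read in 1872 control cells (median 6210 fragments) and 691 Ikzf1/4 cells (median 10931 fragments), and 3 barcodes occurred in both libraries. Each condition is 1 library, so there is no test between conditions, and the intervals given are exact 95% intervals that cover counting error only. Cells were grouped into 9 clusters without the windows of the members, the listed genes and their neighbours. Although the control library is labelled Muller glia, 388 of its 1872 cells were in Muller glia-like cluster 2. Clusters 1 and 5 were bipolar-like (bipolar cells relay photoreceptor input), 3 cone-like, 6 rod-like, 7 microglia-like and 8 amacrine-like, and cluster 9 stayed unnamed. Cluster 4, with 243 control cells, was also Muller glia-like by its markers, with 9 of 10 Muller glia markers up. The median log2 fold of these markers was 1.63 there and 1.55 in cluster 2. None was among the top 10 genes of cluster 4, and clusters 1, 2, 7 and 8 also had no own marker there. The top 10 of cluster 4 held Gfap and Pax6, which are on the marker lists of other classes. It is given by number only, and clusters rather than classes are compared.

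Per length, the cerebellin windows spread widely, and of the receptor genes Nrxn3 and Grid1 were below the median window and Nrxn2 above it. In the control library the Cbln1 window (chr8:87468853-87472592 and flanks) had 4.09 CPM per kb (CPM is fragments scaled to a common total, here all fragments of the cells named), above 91.7% of 18819 windows. Cbln3 had 2.49 and Nrxn2 (chr19:6418756-6533217) had 1.01 CPM per kb. The other windows were below the median window of 0.829 CPM per kb. They were Cbln4 (chr2:172036336-172043466) at 0.398, Cbln2 at 0.395, Grid1 (chr14:34820003-35583387) at 0.335 and Nrxn3 at 0.321. The median is over windows of all lengths. The Nrxn3 and Grid1 windows span 1616 and 767 kb, and their levels were not compared with windows of like length. Cbln2, the member with the large fold change in fibroblasts, had 59 control and 44 Ikzf1/4 fragments in all.

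**Figure D2:**
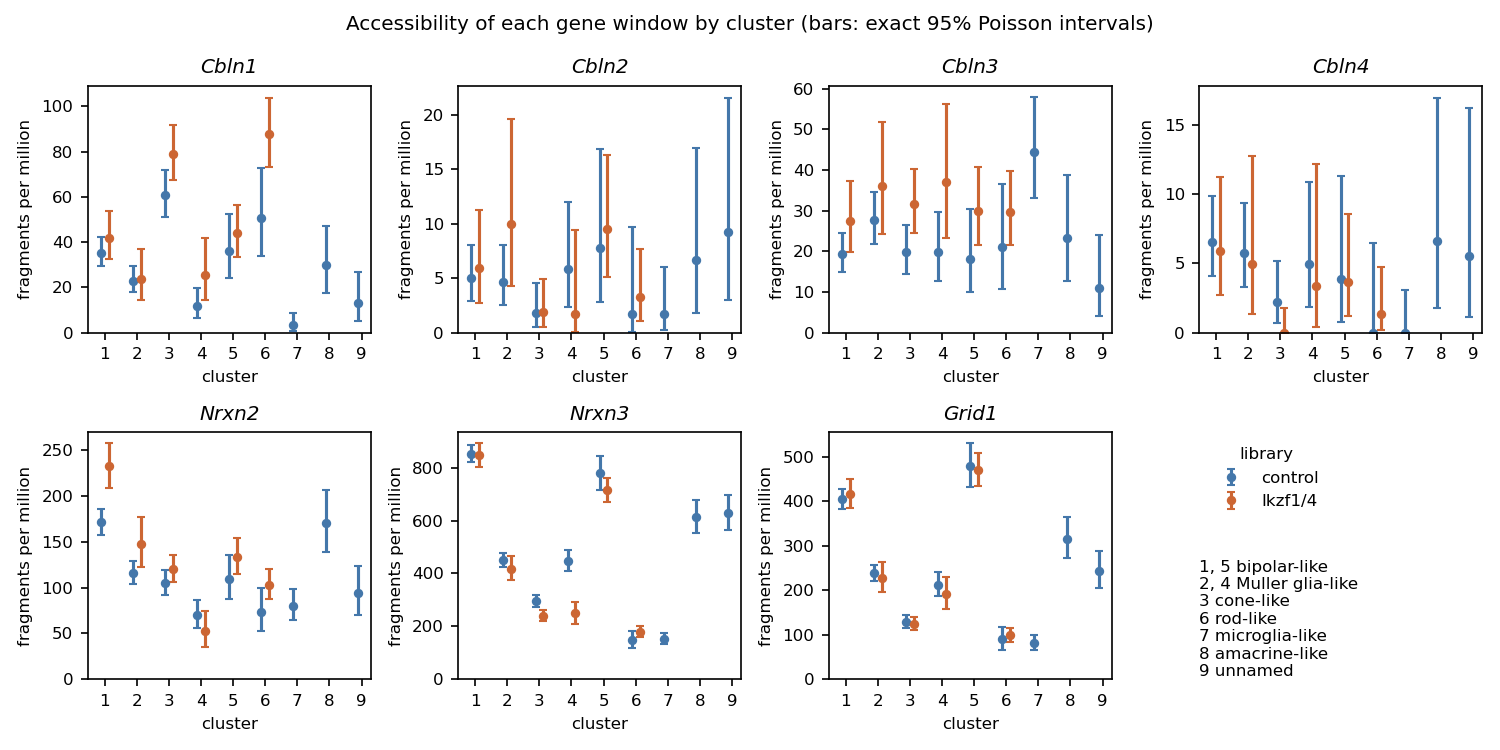
CPM (scaled fragments) in each gene window (vertical axis, from 0) for clusters 1 to 9 with at least 50 cells, in the control library (blue) and the Ikzf1/4 library (orange). Bars are exact 95% Poisson intervals. Cbln1 is highest in clusters 3 and 6, and Nrxn3 and Grid1 are highest in clusters 1 and 5.

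Cbln1 had its highest levels in the photoreceptor-like clusters. In the control library its window had 60.8 CPM in cone-like cluster 3 (51.1 to 71.8) and 50.7 in rod-like cluster 6 (33.9 to 72.8). The bipolar-like clusters 1 and 5 followed at 35.3 and 36.1, and microglia-like cluster 7 was lowest at 3.35. The intervals of clusters 3 and 6 overlapped each other, and both overlapped that of cluster 5 (24.0 to 52.2). The interval of cluster 6 also overlapped those of clusters 1 (29.3 to 42.3) and 8 (17.7 to 47.1), while that of cluster 3 overlapped neither. Cluster 3, picked as the highest, was 2.37 times as high as the other control cells together (1.92 to 2.92). That interval does not allow for the choice.

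Most of the Cbln1 signal came from 1 place. A 500 bp stretch at chr8:87472353-87472852, across the higher-coordinate end of the gene, held 64.4% of the window's fragments over both libraries, and the next 500 bp held 22.5%. In the control library the first stretch had 38.4 CPM in rod-like and 34.8 in cone-like cells, and in the Ikzf1/4 library 61.3 and 39.9. In microglia-like control cells it had 2.51. The stretch had 279 control and 294 Ikzf1/4 fragments, a ratio of 1.60 (1.35 to 1.89), while 12.2% of 115231 such stretches with at least 20 fragments were higher by their interval and 10.3% lower. Within each of clusters 1 to 6 the interval of its ratio held 1. The ratio was 1.59 (0.99 to 2.67) in rod-like and 1.15 (0.83 to 1.58) in cone-like cells.

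The Cbln3 window is shared with Khnyn, and how much of its signal belongs to Cbln3 was not tested. The window was highest in microglia-like cluster 7 at 44.3 CPM (33.2 to 58.0) in the control library, 2.09 times the other control cells (1.53 to 2.82). Cluster 7 was picked as the highest, and the interval of that ratio does not allow for the choice. Its level overlapped by interval with clusters 2 (21.8 to 34.6), 6 (10.8 to 36.6) and 8 (12.7 to 38.9). The 2 most covered stretches of the window start past the higher-coordinate end of Cbln3, on the side of Khnyn. They held 32.8% and 23.2% of the fragments over both libraries. That end is the start of Cbln3, which is on the minus strand. A stretch 7 kb from the lower end had 12.6 CPM in microglia-like control cells and 0.36 in those of cluster 2. Both libraries together, it had 29.0 CPM per kb in cluster 7, 8.91 in cluster 4 and 0.56 in cluster 2. The window at the annotated start of Cbln3 itself held only 24 fragments over all cells, above the median of 10 over 32851 annotated starts and below their 75th percentile of 225. The 250 bases before that start, on the minus strand at chr14:55884257-55884506 (RefSeq, GRCm38.p6), are shown because they reach into the second of these stretches, and they hold 2 CG pairs against a median of 6 over all starts:
Cbln3 start: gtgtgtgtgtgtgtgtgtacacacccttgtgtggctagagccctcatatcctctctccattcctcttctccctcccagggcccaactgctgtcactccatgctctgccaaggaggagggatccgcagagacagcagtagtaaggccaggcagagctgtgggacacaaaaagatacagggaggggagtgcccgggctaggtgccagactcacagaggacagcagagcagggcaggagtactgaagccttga

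Cbln2 and Cbln4 were too thinly covered to order all clusters. Cbln2 ranged from 1.7 to 9.2 CPM over the clusters of the control library with overlapping intervals. Cbln4 ranged from 0 to 6.6, and its interval in microglia-like cluster 7 (0 to 3.09) lay below that of bipolar-like cluster 1 (4.09 to 9.89). In Cbln2 the stretch just before the lower-coordinate end held 47 of the window's fragments, 45.6%. The annotated start of Cbln4 held 2 fragments.

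**Figure D3:**
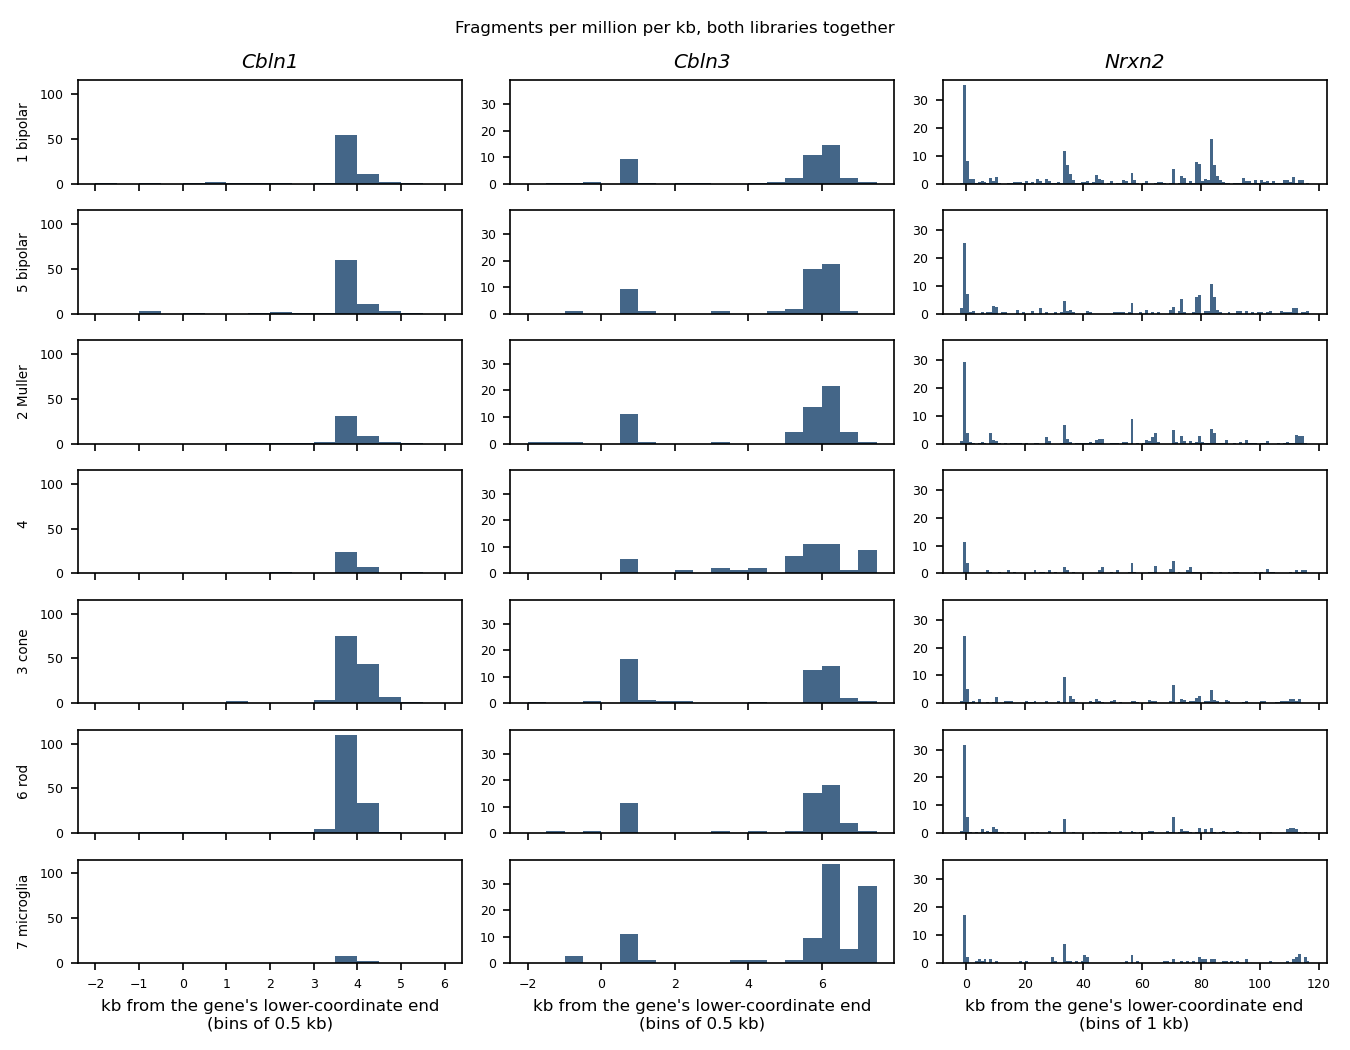
CPM (scaled fragments) per kb (vertical axis, same scale down each column) along Cbln1, Cbln3 and Nrxn2 in 7 clusters, both libraries together. The horizontal axis is the distance in kb from the lower-coordinate end of the gene. Cbln1 has a single site at its higher-coordinate end, and the largest Nrxn2 site is at its lower-coordinate end. Cbln3 has most signal past its higher-coordinate end, which is the side of its start, as it is on the minus strand.

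Nrxn2 was broadly accessible. In the control library it had 171 CPM in bipolar-like cluster 1 (158 to 186) and 171 in amacrine-like cluster 8 (139 to 207). Cluster 4 was lowest at 69.7 (55.6 to 86.3). The intervals of clusters 1 and 8 overlapped, and neither overlapped that of cluster 4. The interval of cluster 4 overlapped those of rod-like cluster 6 (73.4; 52.9 to 99.2) and microglia-like cluster 7 (80.3; 65.1 to 98.1). Its main site lay just before the lower-coordinate end and held 19.0% of its fragments over both libraries. A stretch 78.5 kb inside had 8.28 CPM in amacrine-like cluster 8, 5.05 in cluster 1 and 3.87 in cluster 5 of the control library. It had 1.76 in cone-like cluster 3 and 0 in clusters 4, 6 and 7. Clusters 8 and 6 had only 603944 and 572490 control fragments over the genome, and outside cluster 1 these levels rest on few fragments. No order of clusters is read from them. The Nrxn2 window also touches those of Rasgrp2 and Slc22a12.

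Nrxn3 and Grid1, on different chromosomes, followed each other across clusters. In the control library Nrxn3 had 852 CPM in bipolar-like cluster 1 (822 to 884) and 778 in bipolar-like cluster 5 (717 to 843). Amacrine-like cluster 8 had 613, clusters 2 and 4 had 451 and 447, cone-like cells 295 and rod-like cells 147 (117 to 182). Grid1 had 480 in cluster 5 (433 to 532) and 405 in cluster 1 (384 to 427), then 316 in cluster 8, 239 and 213 in clusters 2 and 4, 129 in cone-like and 89.1 in rod-like cells. Clusters 2 and 4 did not differ beyond their intervals for either gene, nor did rod-like and microglia-like cells.

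Across 15 groups of cluster and library with at least 50 cells, the log2 profiles of both genes had a Pearson r of 0.963, given as a description since the groups share libraries and depth. For Nrxn3 the most similar windows in the genome were those of Ctnna2 (0.965) and then Grid1. For Grid1 they were Cadps (0.968) and then Nrxn3. Ntrk2 was the third for both genes. The window most like that of Cbln1 was Dctn1 (0.954), that of Cbln3 Mllt11 (0.911), that of Nrxn2 Smad9 (0.918) and that of Cbln2 Cntnap4 (0.896), and Cbln4 was under the minimum of 5 CPM.

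Within both genes, different sites were open in different clusters. The sites below are the 8 stretches of 500 bp with the most fragments over all cells in each gene, and those named were picked after their values were seen. Their levels are those of the control library. In Nrxn3 the stretches 96 and 560 kb from the lower end had 30.0 and 11.9 CPM in cluster 1 and 21.9 and 15.5 in cluster 5. At 560 kb clusters 2 and 4 had 0. The stretch at 352 kb was open in bipolar-like cells (15.1 in cluster 1) and cone-like cells (13.2), with 0 in cluster 2. It was not particular to them. In the 10 kb bin that holds it, both libraries together, rod-like cells had 0.909 CPM per kb and amacrine-like cells 1.39. Cluster 1 had 3.13 there and cone-like cells 2.92.

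Clusters 2 and 4 were open at other stretches of both genes. In Nrxn3 the stretches at 1552 kb (chr12:90274701-90275200) and 1025.5 kb (chr12:89748201-89748700) had 26.2 and 19.4 CPM in cluster 2 and 14.9 and 9.96 in cluster 4. In cluster 1 they had 0 and 0.59. In Grid1 the stretch at 292.5 kb (chr14:35112503-35113002) had 19.4 in cluster 2 and 12.5 in cluster 4, against 0.30 in cluster 1 and 0.44 in cone-like cells. The most covered Grid1 stretch, at 89 kb (chr14:34909003-34909502), had the opposite order, with 23.2 in cluster 5, 20.7 in cone-like cells, 2.52 in cluster 2 and 0 in cluster 4. In the 10 kb bin that holds it, both libraries together, cluster 1 had 2.90 CPM per kb and rod-like cells 1.53. Cluster 5 had 4.15 there and cone-like cells 2.37. A stretch at 61 kb had 14.2 in bipolar-like cluster 5 and 4.45 in bipolar-like cluster 1.

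**Figure D4:**
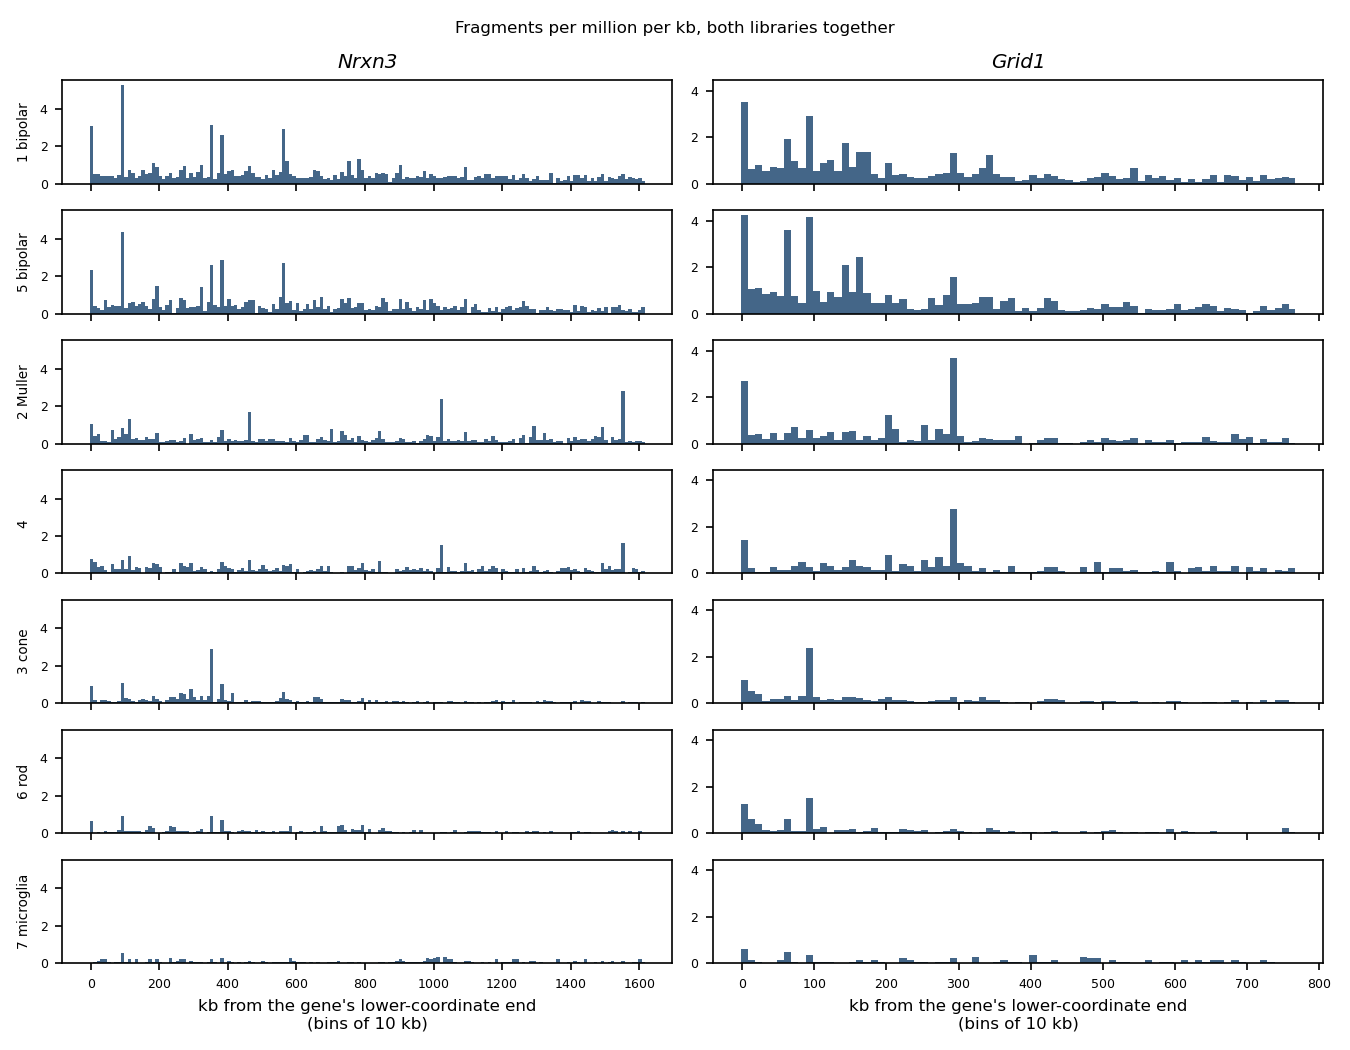
CPM (scaled fragments) per kb in bins of 10 kb (vertical axis, same scale down each column) along Nrxn3 and Grid1 in 7 clusters, both libraries together. The horizontal axis is the distance in kb from the lower-coordinate end of the gene. In the bins that hold 1025.5 and 1552 kb of Nrxn3 and 292.5 kb of Grid1, clusters 2 and 4 are higher than clusters 1 and 5, and clusters 1 and 5 also have a smaller peak in that Grid1 bin.

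RefSeq gives Nrxn3 starts inside this gene, and 3 of them are in the sequence table. They are shown because the stretches of Nrxn3 named above lie elsewhere. Over all cells the first start held 2 fragments and the second 5, under the median of 10 over all annotated starts. The third start held 36, above that median. Over both libraries the third had 3.68 CPM in cluster 1 and 1.95 in cluster 2, and it had 0 in rod-like cells. The 250 bases before each start follow (GRCm38.p6, plus strand, at chr12:88794254-88794503, chr12:88953140-88953389 and chr12:89812233-89812482), with matches in capitals to 3 motifs searched on both strands, with no overlap among the matches: TGGGAA, the core of Ikaros family sites, ATGCAAAT, the octamer of POU factors such as Brn2, and TAATCC, bound by photoreceptor factors:
Nrxn3 start 1: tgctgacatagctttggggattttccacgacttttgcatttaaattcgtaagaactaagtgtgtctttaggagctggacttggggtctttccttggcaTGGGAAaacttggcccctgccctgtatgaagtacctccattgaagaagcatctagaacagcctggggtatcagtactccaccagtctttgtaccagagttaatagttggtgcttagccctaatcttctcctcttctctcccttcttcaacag
Nrxn3 start 2: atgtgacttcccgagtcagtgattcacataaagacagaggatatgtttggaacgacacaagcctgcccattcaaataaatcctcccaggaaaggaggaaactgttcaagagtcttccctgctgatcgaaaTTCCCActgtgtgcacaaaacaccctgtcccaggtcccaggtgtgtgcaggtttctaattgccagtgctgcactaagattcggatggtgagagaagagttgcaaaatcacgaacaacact
Nrxn3 start 3: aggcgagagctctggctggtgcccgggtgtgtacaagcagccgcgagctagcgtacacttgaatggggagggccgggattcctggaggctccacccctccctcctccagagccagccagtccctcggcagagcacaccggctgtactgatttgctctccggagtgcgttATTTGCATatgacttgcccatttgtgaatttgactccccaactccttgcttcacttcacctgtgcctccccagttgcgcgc

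The capitals mark TGGGAA at 152 bases before the first start, its reverse complement TTCCCA at 120 bases before the second, and ATTTGCAT, the reverse complement of the octamer, at 81 bases before the third. Of 32817 starts, 21.6% hold TGGGAA or TTCCCA in such a stretch, 1.60% the octamer and 6.25% TAATCC on either strand. The stretches of Cbln3 and Cbln4 hold none of the 3. These are matches of letters only. The third start has 60% G and C with 12 CG pairs, and the first 45.6% with 2.

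Between the libraries, 3 of 7 member windows were higher in the Ikzf1/4 library and 2 lower, by the rule that the counting interval of the ratio leaves out 1. By the same rule 29.3% of 18819 windows were higher and 13.7% lower, so intervals off 1 were common. The largest ratio was that of Cbln1. It had 31.6 CPM in the control library (28.7 to 34.8) and 53.4 in the Ikzf1/4 library (48.7 to 58.5), a ratio of 1.69 (1.48 to 1.93). Among 3844 windows of like length the median ratio was 1.08, and 2.97% were at or above that of Cbln1.

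The mix of clusters also differed between the libraries, and its part in this ratio was not tested. Rod-like cells were 94 of the control and 140 of the Ikzf1/4 cells, and Cbln1 was high in them. With clusters 1 to 6 weighted as in the control library, a choice made after the data were seen, which leaves out clusters 7 to 9, the Cbln1 ratio was 1.28. Within clusters it was 1.73 in rod-like cells (1.15 to 2.68) and 1.30 in cone-like cells (1.03 to 1.64). It was 2.18 in cluster 4 (0.98 to 4.88), from 14 and 15 fragments, 1.21 in cluster 5 (0.76 to 1.98), 1.19 in cluster 1 (0.86 to 1.62) and 1.03 in cluster 2 (0.58 to 1.74), where the intervals took in 1. By the rule above 11.5%, 8.75%, 11%, 11.8%, 9.63% and 6.35% of windows were higher in clusters 1 to 6, and 4.89%, 4.05%, 5.65%, 5.98%, 4.07% and 4.19% lower. The Ikzf1/4 cells were also deeper, 9517.5 against 5522.5 median fragments in cluster 6, and the part of depth in these ratios was not tested.

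Over all cells the other cerebellins differed less or had few fragments. With clusters 1 to 6 weighted as in the control library, Cbln3 was at 1.48, Cbln2 at 1.32 and Cbln4 at 0.80, beside 1.28 for Cbln1. Within cone-like cluster 3 the Cbln3 ratio was 1.60 (1.08 to 2.39), while 11% of windows were higher there. In clusters 1, 2, 4, 5 and 6 the interval of the Cbln3 ratio held 1. Cbln3 had 23.3 CPM against 31.1 with Ikzf1/4, a ratio of 1.34 (1.13 to 1.58), and its window is shared with Khnyn. Over the gene body without flanks the Cbln3 ratio was 1.22 (0.89 to 1.67), so its interval took in 1. Cbln2 had 4.43 and 5.01, a ratio of 1.13 (0.75 to 1.70), so no difference was detectable at this depth. In cells with at least 10000 fragments the Cbln2 ratio was 1.90 (1.02 to 3.78). Cbln4 had 4.43 and 2.62, a ratio of 0.59 (0.35 to 0.97) from 59 and 23 fragments. In cells with at least 10000 fragments the Cbln4 ratio was 1.06 (0.48 to 2.49).

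The neurexin windows had ratios on opposite sides of 1. Nrxn2 had 120 and 132 CPM, a ratio of 1.10 (1.02 to 1.18). That interval took in 1 when all barcodes were used (1.045, 0.997 to 1.09) or when fragments were scaled to those in gene windows (1.04, 0.96 to 1.12). Within bipolar-like cluster 1 its ratio was 1.36 (1.19 to 1.55) and within cluster 2 it was 1.28 (1.03 to 1.59), while 11.5% and 8.75% of windows were higher there. Its ratio in cluster 4 was 0.75 (0.48 to 1.15).

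Nrxn3 had 519 and 436 CPM, a ratio of 0.84 (0.81 to 0.87). Long windows were lower as a class, since the median ratio of the 50 windows of like length was 0.78, and Nrxn3 lay above it. In cells with at least 10000 fragments the Nrxn3 ratio was 0.96 (0.91 to 1.01). Within cluster 1, where the gene is most open, the ratio was 0.99 (0.93 to 1.06), with a median of 0.87 for windows of like length there. In cluster 4 it was 0.55 (0.46 to 0.67), with a median of 0.80 for windows of like length there, and 5.98% of all windows were lower in that cluster. In cluster 3 it was 0.81 (0.72 to 0.91), near the 0.83 of windows of like length, and 5.65% of windows were lower there. Median fragments in cluster 4 were 4341 in the control and 7158 in the Ikzf1/4 cells, and their part in this ratio was not tested.

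The Grid1 ratio was the closest to 1 over all cells. It had 257 and 252 CPM, a ratio of 0.98 (0.93 to 1.04), and each of its 6 cluster ratios had an interval that held 1. Of the 2214 Grid1 fragments in the Ikzf1/4 library, 218 were in 12 cells of cluster 9 with a median of 47002 fragments. The part of these cells in the ratio was not tested. The median ratio of the 187 windows of like length was 0.85, below that of Grid1, and within clusters 1 to 6 such medians were 0.82 to 0.93. In cells with at least 10000 fragments the Grid1 ratio was 1.09 (1.01 to 1.18). It was 0.88 (0.86 to 0.90) with all barcodes and 0.93 (0.88 to 0.98) when scaled to fragments in gene windows. Under each of these settings another member was closer to 1.

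**Figure D5:**
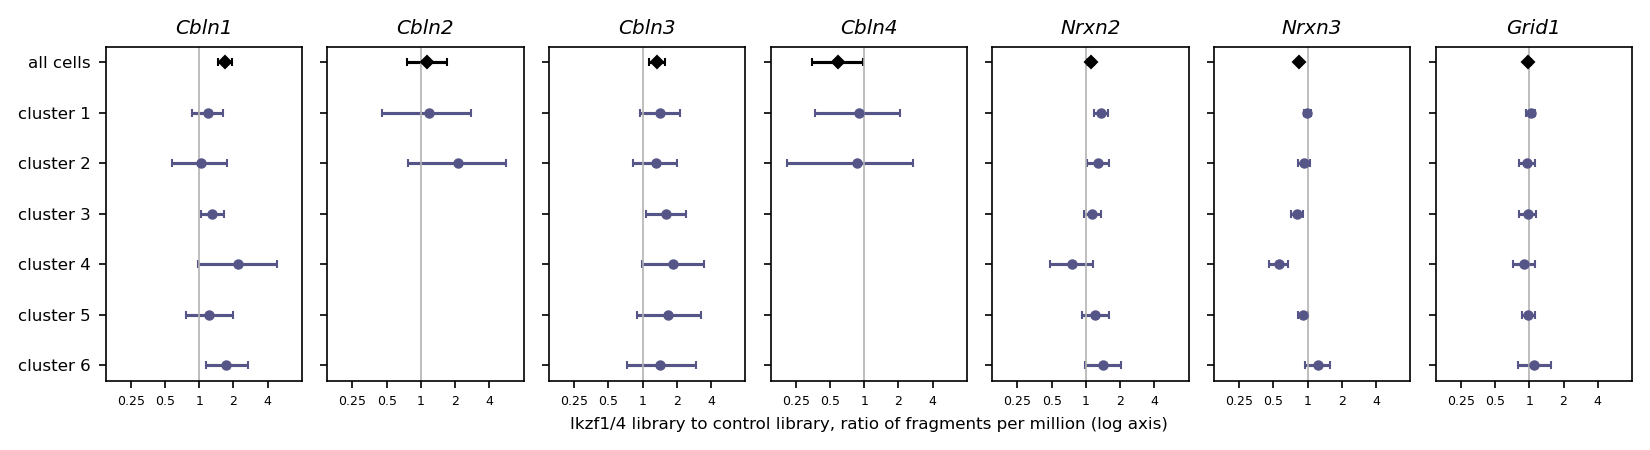
Ratio of CPM in the Ikzf1/4 library to the control library on a log axis for each member, over all cells (diamonds) and in clusters 1 to 6 (circles), with exact 95% intervals. Points with under 20 fragments are left out. Cbln1 lies at 1.69 over all cells and below that in clusters 1, 2, 3 and 5, and Nrxn3 is lowest in cluster 4 at 0.55.

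Some single sites, again picked after their values were seen, were compared in the same way. The Nrxn2 stretch at 78.5 kb had 31 and 37 fragments over all cells, a ratio of 1.81 (1.09 to 3.02), and 17 and 18 in cluster 1, a ratio of 2.34 (1.14 to 4.83). Of 500 bp stretches with at least 20 fragments, 12.2% were higher over all cells and 6.34% in cluster 1, while 10.3% and 3.74% were lower. The ratio of this Nrxn2 site was not taken in cells with at least 10000 fragments. The site of Nrxn3 at 1552 kb had 73 fragments in the control cells of cluster 2 and 8 in the Ikzf1/4 cells, or 26.2 and 9.96 CPM, a ratio of 0.38 (0.16 to 0.79). In cluster 4 it had 18 and 1, a ratio of 0.11 (0.0027 to 0.72). The site of Nrxn3 at 1025.5 kb had 54 and 17 fragments in cluster 2, a ratio of 1.09 (0.59 to 1.91), and 12 and 8 in cluster 4, a ratio of 1.36 (0.48 to 3.61). Across the genome 4.84% of 500 bp stretches with at least 20 fragments in cluster 2 were lower by the same rule, and 2.41% in cluster 4, while 4.21% and 9.12% were higher. With 18 and 1 fragments in cluster 4 the site at 1552 kb falls under that minimum, so these shares are not its background there. In cells of cluster 2 with at least 10000 fragments the ratio at 1552 kb was 0.25 (0.076 to 0.68).

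The Grid1 sites followed no single direction. Its site at 292.5 kb had 54 and 8 fragments in cluster 2, a ratio of 0.51 (0.21 to 1.09). In cluster 4 it had 15 and 7, a ratio of 0.95 (0.33 to 2.47), so the interval held 1 in both clusters. In cells of cluster 2 with at least 10000 fragments it had 22 and 6, a ratio of 0.35 (0.12 to 0.88). The stretch just before its lower-coordinate end had 31 and 32 fragments in bipolar-like cluster 1, a ratio of 2.28 (1.35 to 3.86), and 6.34% of stretches were higher and 3.74% lower there. In the deepest cells it rested on 4 control fragments against 29, a ratio of 4.28 (1.503 to 16.8). The ratio of the whole Grid1 window in that cluster was 1.03 (0.94 to 1.13).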

How the data were processed

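The members and the gene lists were chosen with earlier results of these data known. Fibroblast RNA-seq was quantified with Salmon, per the submitters' processing notes, and the authors deposited estimated counts for each transcript, 34965832 to 44269888 per library after rounding. The authors also deposited a DESeq2 gene table with a mean normalised signal, a log2 fold change, its standard error, a Wald score and p-values. Low standard errors at the lowest means (median 0.049 under 2) go with shrunk fold changes, and no source used here says whether they were shrunk. Gene identifiers matched the name table for 99.2%. Estimated counts were tested per transcript with edgeR 4.0.16 (filterByExpr, TMM, Benjamini-Hochberg), since transcripts are not paired with genes, which departs from the gene-level plan and gives background only: 3095 of 43526 transcripts (7.11%) passed 0.05. DESeq2 1.42.0 and limma 3.58.1 were alternatives.

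The authors deposited fragment counts per barcode on mm10, made with Cell Ranger ARC 2.0, per the submitters' processing notes. Cells had at least 3000 fragments and an enrichment at gene ends of 4 or more, and the highest 1% by fragments were left out, with no other doublet caller. Windows came from GRCm38.p6 genes without strand. CPM (scaled fragments) are relative to all fragments of the cells named. Ratios carry exact binomial and levels exact Poisson 95% intervals, tested on simulated data, and windows under 20 fragments were left out of the background. Clusters came from latent semantic analysis and Leiden clustering (leidenalg 0.10.2). Named genes are the 7 members, list genes past the threshold, markers, the 2 nearest genes on each side and the 5 most alike windows.

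Fibroblast ATAC peaks were called with MACS2, per the submitters' processing notes, which name mm9 and mm10. Their coordinates reach 197160924 on chromosome 1, past the last fragment there (195371609 on mm10), so they were not set against the members. The single-cell RNA samples were not analysed here, and some genes of the lists are counted but not reported by name here.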

Additional observations from a re-analysis of the deposited data

How the results depend on the processing

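Limits are set by 1 library per condition in the retina, by low coverage of Cbln2 and Cbln4, and by the deposited table, which gives no value per library. The planned comparison of fibroblast peaks at the member genes and its alternatives were not run, since no gene positions of their build were used here. Under alternatives to the edgeR test, which called 3095 transcripts, no filter gave 1849, DESeq2 gave 7529, and leaving out each of the 6 libraries in turn gave 728 (Ikzf1/4 replicate 2) to 1701 (control replicate 3); DESeq2 size factors (2959) and limma-voom (2986) changed little. The replicate block gave 8 calls. Deviations of same-numbered libraries had r of -0.017, -0.00052 and 0.0053, and values this near 0 cannot settle whether the numbers pair the samples. At a deposited adjusted p under 0.01, 1 member remained in place of 2, Cbln2, and the lists kept the count of called genes within 1.5 times under both alternatives.

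In cells of at least 10000 fragments the Ikzf1/4 to control ratio of Cbln4 turned to 1.06, and those of Cbln1, Cbln2, Nrxn2, Nrxn3 and Grid1 moved to 1.93, 1.90, 1.23, 0.96 and 1.09. All barcodes gave 0.91 for Nrxn3 and 0.88 for Grid1, and scaling to fragments in gene windows gave 0.79 and 0.93; the Grid1 interval left out 1 under all 3 of these settings. With clusters weighted as in the control library, Cbln1, Nrxn2 and Nrxn3 were at 1.28, 1.26 and 0.92. Against the other control cells, the highest cluster moved in cells of at least 10000 fragments for Cbln4 (4.17), Nrxn2 (1.46) and Grid1 (2.34), and that of Cbln2 went from 2.18 to 1.01. Counting cut ends ended no call on a member ratio. Gene bodies without flanks ended that on Cbln3 (1.22), and all barcodes (1.045) and scaling to gene windows (1.04) that on Nrxn2. The cause of these shifts was not tested.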
